A study of Mus musculus with 4 samples.

Results

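The genes described here encode the Wnt ligands, the Frizzled receptors and the co-receptors Lrp5 and Lrp6, and the measurement is the binding of Fos around them in mouse colonic epithelium. They were taken by gene symbol from an NCBI RefSeq gene table (GRCm38.p6, the mm10 assembly): protein-coding genes called Wnt or Fzd with a digit, plus Lrp5 and Lrp6. This gave 31 of the 21631 protein-coding genes used, of which 19 were ligands, 10 were receptors and 2 were co-receptors. A summit, the highest point of a called peak, was counted for a gene when it lay inside it or within 50 kb of its span, and is called a boundary summit when it lay within 1 kb of either end. Counts of summits inside a gene leave out its boundary summits, also those that lie within its span. The windows of the 31 genes held 549 of the 178981 summits of the peak list, in 338 regions.

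Fos was mapped by CUT&Tag, in which an antibody against Fos leads a transposase to cut and tag the DNA beside the protein. Of the 4 libraries from wild-type (WT) colon, labelled as colonic epithelium and as 1 batch, 2 came from healthy controls without colitis and 2 from mice labelled colitis recovered. The latter had drunk 1 to 1.5% dextran sodium sulfate (DSS), which injures the colonic lining, in 3 cycles of 7 days on and 10 days off, and were taken 22 days after the last cycle. The labels state no age for the mice, and all 4 libraries were made from mucosa scraped after 30 min in 4 mM EDTA. The data analysed were 1 peak list, the only one used for the series, with no value per library. Its name carries a DSS label, and which libraries entered it is not given. Whether the values below include the healthy controls is therefore open. The 2 groups could not be set against each other, and no value below carries a replicate error. Values at a summit are the authors' fold enrichment over background and the number of overlapping fragments read from it, called the pileup. Each pileup has a 95% Poisson interval that covers counting error only. The settings of the peak caller are not given, so the unit is taken to be 1 fragment. The intervals assume that these counts are independent and were not scaled. The background was 3.16 fragments per base, and the number of reads per library is unknown. No library without the Fos antibody was used here, so signal from open chromatin that the transposase cuts without Fos was not measured.

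Wnt proteins are secreted, lipid-modified ligands. They bind the cysteine-rich domain of a Frizzled receptor and, in the canonical branch, also Lrp5 or Lrp6, after which β-catenin is stabilised and enters the nucleus to act with TCF/LEF factors. In the intestine this signal keeps the stem cells of the crypt dividing, and much of the ligand is made by mesenchymal cells beneath the crypt rather than by the epithelium. Fos is a subunit of AP-1, a transcription factor induced by growth signals and injury.

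The labelled cell type was checked on marker genes. All 8 epithelial markers (Epcam, Cdh1, Krt8, Krt18, Krt20, Vil1, Cdx2 and Cldn7) had a boundary summit, with a median boundary fold of 70.6. Of all protein-coding genes 62.0% had one, with a median boundary fold of 27.4 over those. Of 10 mesenchymal markers 4 had one, with a median fold of 5.65 over those 4, and Acta2, Col1a2, Col3a1, Des, Foxl1 and Myh11 had none. No endothelial marker of 4 had one. Of 6 immune markers only Itgam did, at a fold of 104.2, and of 4 markers of glia and neurons only S100b did, at 17.6. In a bulk library a weak summit in all cells and a strong summit in a few cells cannot be told apart, which holds for every gene below.

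All 10 Frizzled genes had a Fos summit at a boundary, against 10 of 19 Wnt genes. Over all protein-coding genes the share was 62.0%. The counts moved with the settings: with a −log10 q of at least 10, 4 of 19 Wnt genes and all 10 Frizzled genes had one, against 55.6% of all genes, and without regions wider than 3000 bp 8 of 10 Frizzled and 10 of 19 Wnt genes did, against 58.8%. The difference between the classes was not tested, because each gene gives 1 value and the members were chosen with earlier results known. The strength of the boundary summits also differed between the classes in description. Where a boundary summit was present, the highest boundary fold had a median of 28.7 over the 10 Frizzled genes and 4.45 over the 10 Wnt genes, beside 27.4 over all genes with one. A boundary fold above 10 was reached by 8 of 10 Frizzled genes, 4 of 19 Wnt genes and Lrp6 alone of the co-receptors, against 48.5% of all protein-coding genes. Of the Frizzled genes 5 lay above the median of all genes with a boundary summit, and of the Wnt genes only Wnt6 did.

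**Figure D1:**
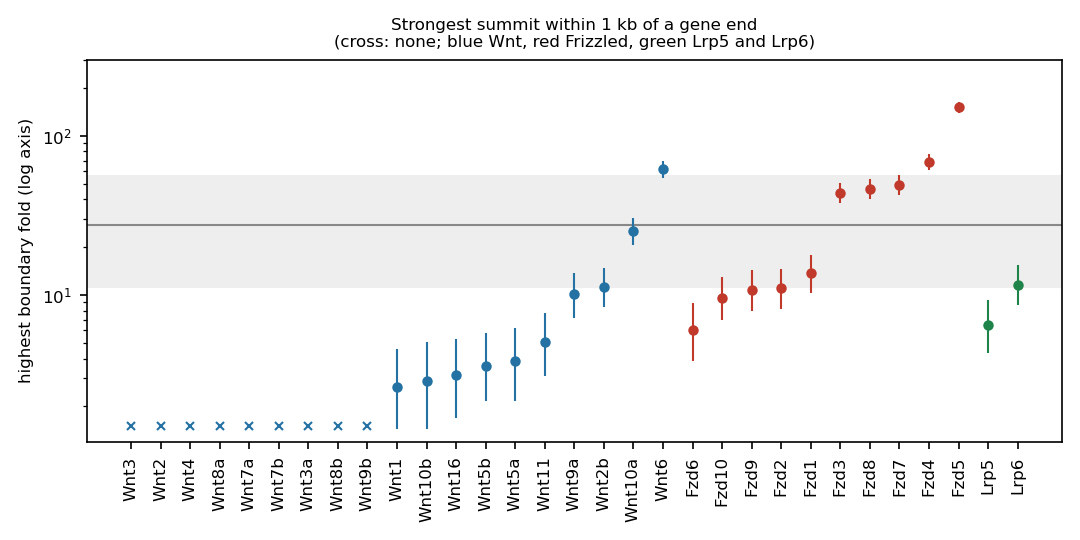
Highest fold enrichment (log axis) of a Fos summit within 1 kb of a gene end for each of the 31 genes (blue Wnt, red Frizzled, green Lrp5 and Lrp6), with 95% Poisson intervals as bars and crosses for genes with no such summit, over the median (grey line, 27.4) and interquartile range (grey band, 11.3 to 55.6) of all genes that have one. All 10 Frizzled genes carry a point, Fzd5 highest at 151.3, while 9 Wnt genes carry a cross and only Wnt6 lies above the grey line among the ligands.

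Summit counts in the whole windows did not set the classes apart in the same way. The median was 16 summits for the 19 ligand genes, 12.5 for the 10 receptor genes and 16 for all protein-coding genes. Lrp5 had 72 and Lrp6 59, more than 98.3% and 96.2% of all genes. Both are over 100 kb long, and long genes have wider windows. Per 100 kb of window the median was 13.0 for ligands, 10.9 for receptors and 11.1 for all genes, and Lrp5 and Lrp6 had 35.7 and 26.8. Of the distinct summits in Frizzled windows 24.3% lay at a boundary, and of those in Wnt windows 6.47%. The Frizzled genes are short, with a median of 4594 bp against 22906 bp for the Wnt genes. These shares are of the summits in whole windows, and no such share was taken over all protein-coding genes. Whether gene length bears on the shares was not tested.

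**Figure D2:**
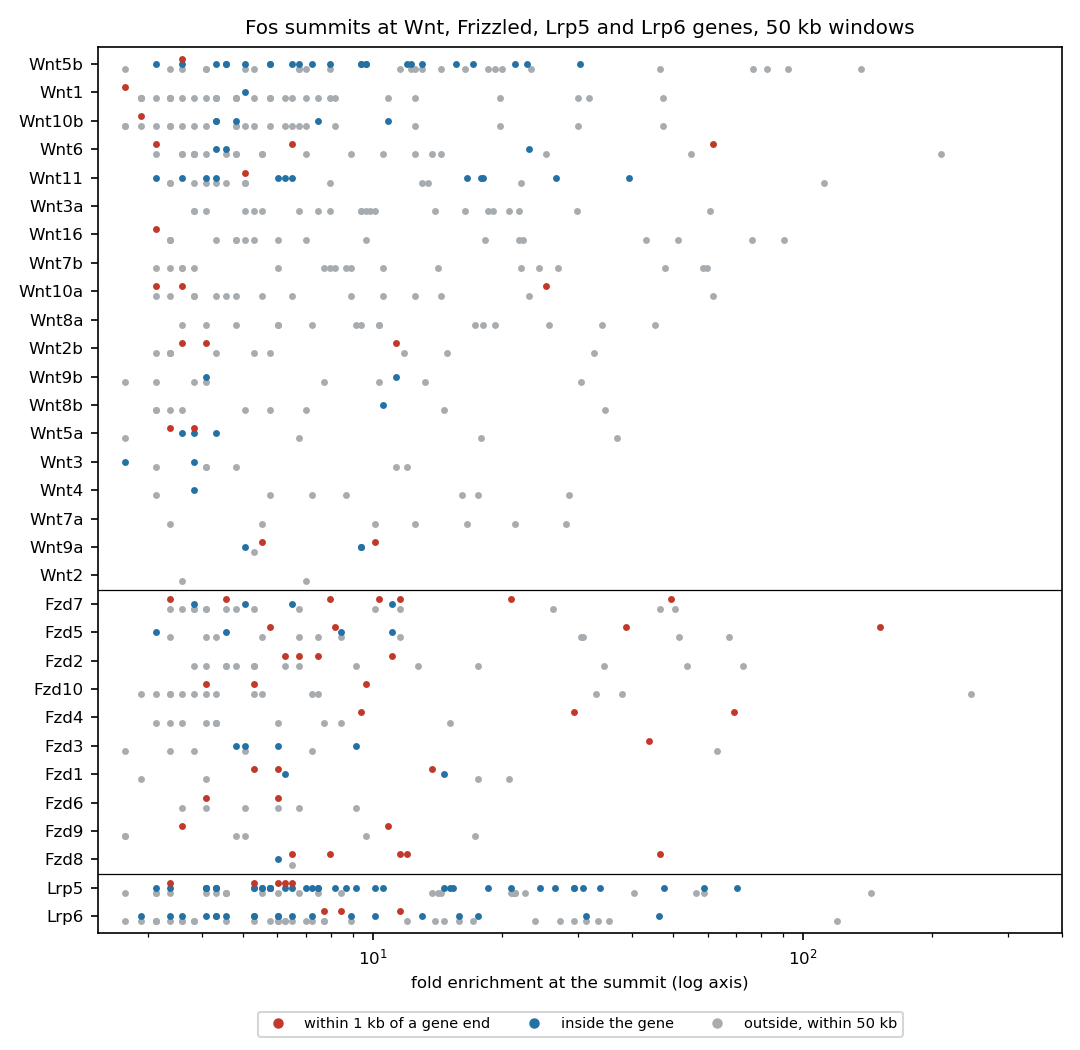
Fold enrichment (log axis) of every Fos summit in the 50 kb windows of the 31 genes, 1 row per gene, in red within 1 kb of a gene end, in blue inside the gene and in grey outside it. Grey points dominate most Wnt rows, and red points reach the right side of the Fzd5, Fzd4, Wnt6, Fzd7, Fzd8 and Fzd3 rows. Blue points are 41 of 72 in the Lrp5 row and 20 of 59 in the Lrp6 row, where 36 are grey.

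Fzd5 carried the strongest boundary summit of the 31 genes. Fzd5 is a receptor of the intestinal epithelium with a role in Paneth cells and lies on chromosome 1 from 64730558 to 64737750. Its strongest summit, at 64737985, is 235 bp before the start of transcription and had a fold of 151.3 with 628 fragments (580 to 679), higher than the boundary fold of 98.0% of all genes, with genes that have none counted as lower. It lay in a region of 3807 bp with 7 summits that ran from the gene's interior across the start, in which the next summits outside the gene had folds of 38.7 and 30.8. A pair of summits 5306 and 5565 bp from the gene, with folds of 51.5 and 30.55, also had Fzd5 as their nearest protein-coding gene. The summit of fold 67.35 on the other side lay 176 bp from Ccnyl1. The summits above a fold of 20 that were nearest to Fzd5 thus lay at its start and on its upstream side.

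Fzd8, the closest relative of Fzd5, had all 7 of its summits in 1 region of 3277 bp over its lower end on chromosome 18. Of these, 5 were boundary summits, and the strongest had a fold of 46.4 and 192 fragments (166 to 221) at a position 624 bp below Fzd8. The others had folds of 6.01 to 12.0. No other protein-coding gene lay in its window, and outside this region no summit was called there.

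Fzd7 belongs with Fzd1 and Fzd2 to a second subfamily and is a main Wnt receptor of intestinal stem cells. It had 26 summits, the most of any Frizzled gene, and 7 of them at its ends. The summit at 59482177, 30 bp after the start of transcription, had a fold of 49.3 and 204 fragments (177 to 234). A second boundary summit, 856 bp beyond the other end, had a fold of 20.9. Of its summits outside the gene, that 6303 bp upstream had a fold of 46.4 and that 17048 bp upstream 26.2, and 21 of the 26 had Fzd7 as their nearest protein-coding gene. The summit of fold 50.5 at 33536 bp lay inside Gm973. Its relatives were weaker. The start of Fzd1 had a fold of 13.7 and 56 fragments (42 to 73), with 20.7 at 20882 bp below the gene, and Fzd2 had 11.1 and 45 fragments (33 to 60) at 137 bp below its lower end. Stronger summits in the Fzd2 window were nearest to other genes, with folds of 72.6 and 53.6 near or in Gpatch8 and 34.4 nearest to Meioc. The intervals of Fzd1 and Fzd2 overlap each other and stay below that of Fzd7.

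Fzd4, which also binds the unrelated ligand Norrin, had a boundary fold of 69.0 and 286 fragments (254 to 321) at 36 bp before its start. That summit lies inside the annotated span of Tmem135, so the site cannot be assigned to Fzd4 alone. The strongest summit with Fzd4 as its nearest gene lay 1467 bp beyond the other end, with a fold of 15.15. Fzd9 and Fzd10 are relatives within the family. Fzd9 had 8 summits and a boundary fold of 10.8 with 44 fragments (32 to 59). Fzd10 had 9.62 and 39 fragments (28 to 53) at its start, an interval that overlaps that of Fzd9.

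The strongest summit in any of the 31 windows belonged to the Fzd10 window, but lay far from the gene. At 128579506 on chromosome 5, 21600 bp below Fzd10, it had a fold of 246.1 and 1022 fragments (960 to 1087), more than the strongest summit of 97.8% of genes. Its region was 3183 bp wide, and without regions wider than 3000 bp the strongest fold in this window was 33.0, below the 208.8 of the Wnt6 window. No other protein-coding gene lay in the Fzd10 window. The table places the site inside the long noncoding RNA gene Fzd10os, 376 bp from its lower end, and Fzd10os runs from there to just below Fzd10. Of the remaining summits in this window, those at 19889 bp and 11596 bp had folds of 38.0 and 33.0. The pileup here was thus far above that at Fzd10 itself, with intervals that do not overlap.

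Fzd3 and Fzd6, the receptors best known for planar polarity, differed. Fzd3 had a single boundary summit, 126 bp above its upper end, with a fold of 43.8 and 181 fragments (156 to 209). Fzd6 had the weakest boundary signal of the family, with a fold of 6.01 and 24 fragments (15 to 36), and no summit in its 8-summit window exceeded a fold of 9.14. The order of the boundary folds was Fzd5, Fzd4, Fzd7, Fzd8, Fzd3, Fzd1, Fzd2, Fzd9, Fzd10 and Fzd6. Within it, Fzd7, Fzd8 and Fzd3 had overlapping pileup intervals, as did each pair of neighbours from Fzd1 to Fzd6, while the intervals of Fzd5 and Fzd4 overlapped no other. The order depends on the settings. With boundaries of 500 bp the boundary fold of Fzd8 was 11.55, and without regions wider than 3000 bp that of Fzd7 was 20.9 and Fzd5 and Fzd8 had none.

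**Figure D3:**
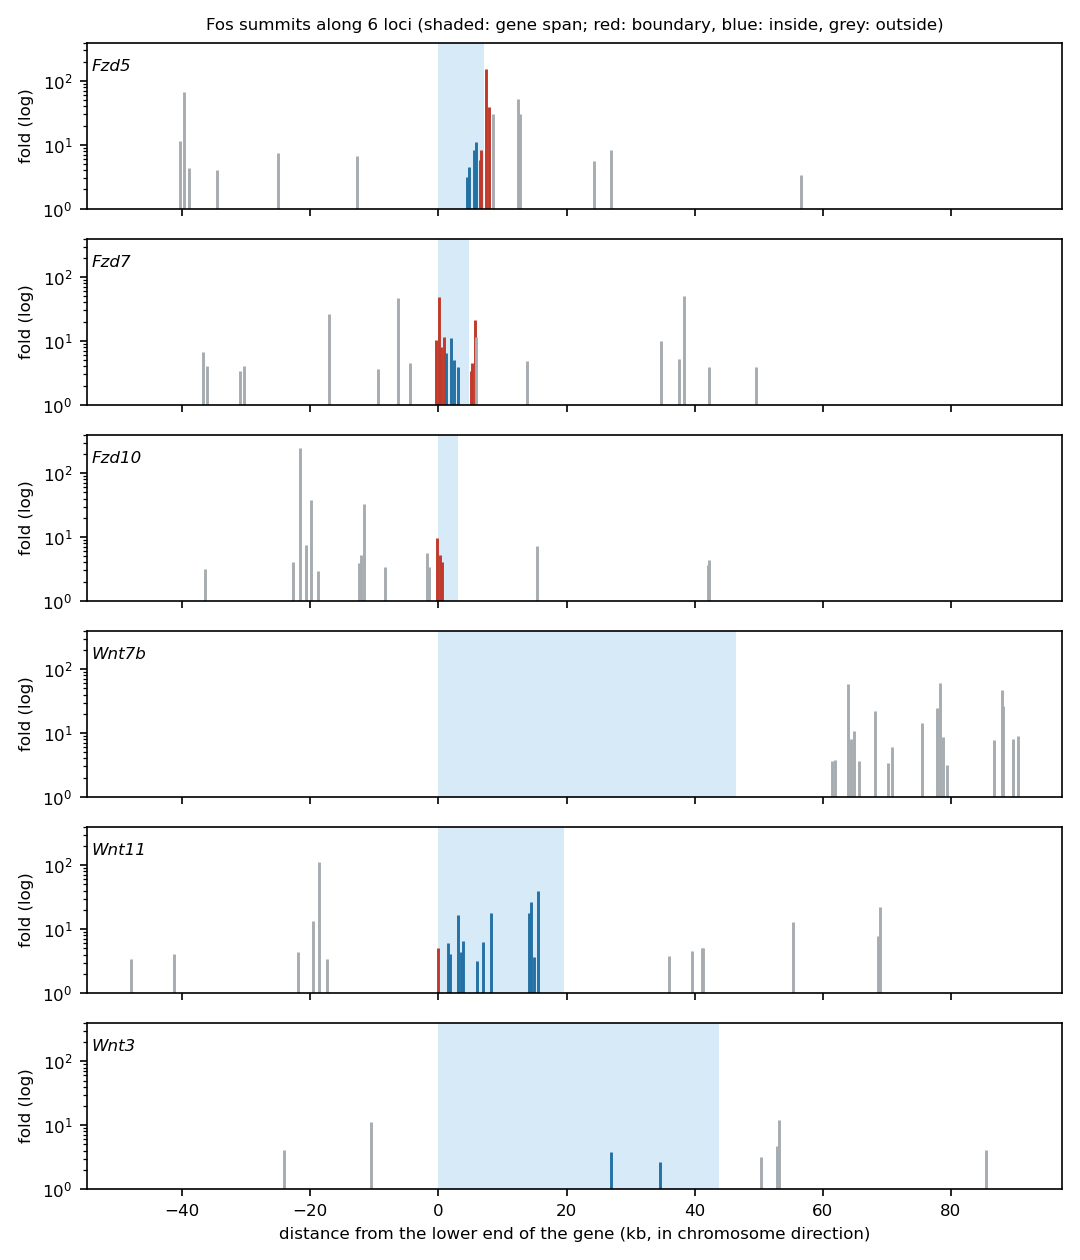
Fold enrichment (log axis) of the Fos summits around 6 genes against the distance in kb from the lower end of each gene, with the gene span shaded, boundary summits in red, summits inside the gene in blue and others in grey. Signal stands at the upper end of Fzd5 and the lower end of Fzd7, 21600 bp below Fzd10, outside the shaded span in Wnt7b, both outside and inside in Wnt11, and is low throughout Wnt3.

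Promoter sequences from RefSeq (GRCm38.p6) were at hand for 21 of the 31 genes, with 24 starts of transcription. Each holds the 250 bases before the start and the 50 after. A summit lay within 1 kb of a start in all 6 Frizzled genes and in 9 of 15 Wnt genes of this table, against 62.2% of all genes in it, with median folds of 31.5, 4.09 and 29.1. At the other end of the gene a summit was found in 2 Frizzled genes, Fzd7 and Fzd4, in 0 of 15 Wnt genes and in 17.5% of all genes. A summit lay inside these 300 bases at 5 of 6 Frizzled promoters and at 5 of 18 Wnt promoters, against 42.4% of all protein-coding promoters. The Frizzled promoters with the strongest summits are shown 5′ to 3′ on the strand of the gene, with the 7 bases centred on the summit in capitals, so that the place of the signal can be seen. That of Fzd5 is chr1:64737701-64738000 (minus strand), that of Fzd4 chr7:89404116-89404415 (plus strand) and that of Fzd7 chr1:59481897-59482196 (plus strand).
Fzd5: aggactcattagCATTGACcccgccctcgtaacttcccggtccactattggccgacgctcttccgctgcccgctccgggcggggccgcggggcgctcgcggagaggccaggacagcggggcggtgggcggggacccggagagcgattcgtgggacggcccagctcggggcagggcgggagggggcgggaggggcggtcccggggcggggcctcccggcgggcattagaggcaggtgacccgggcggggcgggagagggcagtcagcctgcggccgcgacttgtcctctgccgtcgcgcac
Fzd4: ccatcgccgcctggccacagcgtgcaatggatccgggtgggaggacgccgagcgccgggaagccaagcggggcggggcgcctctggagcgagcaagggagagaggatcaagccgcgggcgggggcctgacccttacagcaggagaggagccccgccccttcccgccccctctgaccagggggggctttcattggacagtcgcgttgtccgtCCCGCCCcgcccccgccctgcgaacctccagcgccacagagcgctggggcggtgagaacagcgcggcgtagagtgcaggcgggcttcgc
Fzd7: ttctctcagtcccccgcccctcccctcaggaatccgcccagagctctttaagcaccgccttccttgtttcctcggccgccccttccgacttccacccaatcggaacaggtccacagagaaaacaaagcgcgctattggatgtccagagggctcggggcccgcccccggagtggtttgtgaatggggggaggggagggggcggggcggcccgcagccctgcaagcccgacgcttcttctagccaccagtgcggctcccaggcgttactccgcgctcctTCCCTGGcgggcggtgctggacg
All are rich in G and C, at 75.7% in Fzd5, 72.7% in Fzd4 and 66.7% in Fzd7. The observed over expected frequency of CpG was 0.906, 0.810 and 0.727, beside a median of 0.574 over all promoters. The summit was 235 bp before the start in Fzd5, 36 bp before it in Fzd4 and 30 bp after it in Fzd7.

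The letters of an AP-1 site were searched as TGANTCA, those of a cyclic AMP response element as TGACGTCA and those of a TCF/LEF site as TTCAAAG and ATCAAAG, on both strands. TGANTCA reads the same on both strands apart from its central base, so a site is counted once. TGANTCA was present in 1 of the 24 promoters of these genes (4.17%) and in 7.04% of all promoters, TGACGTCA in 0 of 24 and in 2.26%, and a TCF/LEF motif in 2 of 24 (8.33%) and in 7.61%. None of the 6 Frizzled promoters held any of these letters. The promoter with TGANTCA was the upstream start of Wnt5b, chr6:119544298-119544597 (minus strand), at positions -191 to -185 from the start. An ATCAAAG lay at -51 to -45 in Wnt11, chr7:98834862-98835161 (plus strand), and another in the start of Wnt5b nearest its lower end. The upstream Wnt5b start, with its TGANTCA match in capitals, and the Wnt11 start, with its ATCAAAG in capitals, are printed together with the start of Wnt3, chr11:103773925-103774224 (plus strand), which held no motif and had no summit within 10 kb.
Wnt5b: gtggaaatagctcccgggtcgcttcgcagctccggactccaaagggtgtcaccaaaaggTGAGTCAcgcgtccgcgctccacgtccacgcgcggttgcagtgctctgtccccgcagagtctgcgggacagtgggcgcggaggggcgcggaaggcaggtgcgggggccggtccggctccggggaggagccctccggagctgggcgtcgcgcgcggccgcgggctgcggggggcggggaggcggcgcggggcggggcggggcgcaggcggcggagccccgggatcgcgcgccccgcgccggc
Wnt11: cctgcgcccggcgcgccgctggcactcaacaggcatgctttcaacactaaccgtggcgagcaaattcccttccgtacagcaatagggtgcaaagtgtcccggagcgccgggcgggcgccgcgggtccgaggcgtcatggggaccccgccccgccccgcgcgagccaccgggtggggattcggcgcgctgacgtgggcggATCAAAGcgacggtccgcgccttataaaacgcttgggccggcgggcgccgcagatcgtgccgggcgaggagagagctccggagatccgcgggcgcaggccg
Wnt3: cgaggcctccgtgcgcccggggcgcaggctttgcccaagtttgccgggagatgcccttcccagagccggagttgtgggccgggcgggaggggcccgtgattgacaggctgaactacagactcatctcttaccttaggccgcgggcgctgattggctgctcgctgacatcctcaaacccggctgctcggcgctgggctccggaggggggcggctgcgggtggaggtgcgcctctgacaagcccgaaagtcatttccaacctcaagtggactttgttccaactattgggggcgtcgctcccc
The summit in the Wnt5b promoter was weak, with a fold of 3.61 and 14 fragments (8 to 23) at position -238, and that in the Wnt11 promoter had 5.05 and 20 fragments (12 to 31). Wnt11 has a further RefSeq start at 98838845, and within 1 kb of that start a summit of fold 16.6 lay inside the gene. High CpG content was not restricted to promoters with a summit. The start of Wnt3a was 86.3% G and C, that of Wnt4 84.3% and that of Wnt7a 76.0%, and their nearest summits were 12199, 9827 and 29441 bp away.

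Only 4 ligand genes had a boundary fold above 10. Wnt6 and Wnt10a are neighbours on chromosome 1, 6697 bp apart, and 17 of the 27 summits near Wnt6 were also among the 18 near Wnt10a. Wnt6 had the highest boundary fold of any ligand, 61.8 with 256 fragments (226 to 289), at 74754402, which is 60 bp inside its lower end. This end belongs to the longest annotated span, and the RefSeq promoter of Wnt6 starts at 74771892. Within 1 kb of that start the strongest summit had a fold of 4.33. A summit inside Wnt6 had 23.1, and the strongest of the window, with a fold of 208.8, lay 27407 bp below Wnt6 inside Cyp27a1, a sterol hydroxylase gene. Wnt10a had 25.3 and 104 fragments (85 to 126), at 851 bp inside its upper end. Wnt2b, a ligand made by intestinal mesenchyme, had 11.3 and 46 fragments (34 to 61) at 204 bp before its start, and Wnt9a had 10.1 and 41 fragments (29 to 56) at its start. The intervals of Wnt2b and Wnt9a overlap, and those of Wnt6 and Wnt10a stand apart from both and from each other.

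In the other 6 ligand genes with a boundary summit the signal there was below the median of all summits in the list, which was 27 fragments. These were Wnt1, Wnt5a, Wnt5b, Wnt10b, Wnt11 and Wnt16, with highest boundary folds of 2.65 to 5.05 and 10 to 20 fragments, where the weakest summit of the whole list had 10. The boundary fold of Wnt1 was 2.65 with 10 fragments (5 to 18) and that of Wnt10b 2.89 with 11 (5 to 20). These are neighbours on chromosome 15, 11651 bp apart, with 27 shared summits, 93.1% of those near Wnt10b and 81.8% of those near Wnt1. Their windows were gene-rich, with 6 and 7 other protein-coding genes, and the strongest summit of both, with a fold of 47.4, lay inside Arf3. Only 4 of 33 summits near Wnt1 and 6 of 29 near Wnt10b were nearest to the ligand gene. Wnt16 had 19 summits, of which 3 were nearest to it, and its strongest, with a fold of 90.4, lay inside Fam3c. Just inside the 1 kb limit lay a summit of Wnt5a at 963 bp, with a fold of 3.85, and one of Fzd2 at 929 bp, with 6.73. Just outside it lay summits of Wnt9a at 1023 bp, Fzd3 at 1043 bp, Fzd4 at 1053 bp and Fzd1 at 1058 bp, with folds of 5.05, 9.14, 4.33 and 14.7, and each of these genes also had a summit inside the limit.

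Among ligands known mainly for β-catenin independent signalling, Wnt11 and Wnt5b were rich in summits inside the gene and Wnt5a was not. Wnt11 had 26 summits, 12 of them inside the gene, with folds of up to 39.45 at 4100 bp from its upper end. Its strongest lay 18694 bp before the gene, at 98816390 on chromosome 7, and reached a fold of 111.8 with 464 fragments (423 to 508). Wnt11 was its nearest protein-coding gene, and the table also places it inside the long noncoding RNA gene Gm39054 and 643 bp from a transfer RNA gene. Wnt5b, which is 112294 bp long, had 51 summits, the most of any ligand, with 24 inside it and folds of up to 30.3 there. The summits of higher fold in its window, up to 136.6, lay inside Adipor2, which encodes an adiponectin receptor. Wnt5a had 9 summits, with 3 inside the gene at folds of 3.61 to 4.33, and its strongest, 14902 bp above it, had a fold of 37.0 and 153 fragments (130 to 179).

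No boundary summit was called at Wnt2, Wnt3, Wnt3a, Wnt4, Wnt7a, Wnt7b, Wnt8a, Wnt8b and Wnt9b. For 5 of these, Wnt2, Wnt3a, Wnt7a, Wnt7b and Wnt8a, no summit lay inside the gene either, although the Wnt2, Wnt3a, Wnt7a and Wnt7b genes are 42716 to 47373 bp long. These 5 are 26.3% of the 19 ligand genes, near the 27.5% of all protein-coding genes that had neither. Wnt2, a ligand of mesenchymal cells, had only 2 summits in its window, with folds of at most 6.98, and both lay inside Asz1. Wnt3, the ligand that Paneth cells of the small intestine supply to stem cells, had 8 summits, of which 2 were inside the gene with folds of 3.85 and 2.65, and none in its window exceeded 12.0. Wnt9b overlaps the start of Wnt3 and shared 5 summits with it. Inside Wnt9b the strongest summit had a fold of 11.3. One of 4.09 lay at position -232 from its RefSeq start, which is not at the end of its annotated span and was therefore not counted as a boundary summit. Wnt4 had 8 summits with 1 inside the gene, at a fold of 3.85, and the strongest of its window, 28.6, lay inside Cdc42.

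Genes without a boundary summit were not always poor in summits. Wnt7b, whose gene was empty, had 19 summits, and all of them lay between 15029 and 44057 bp above it, with Wnt7b the nearest protein-coding gene of each. Within this stretch 3 regions reached folds of 58.45, 59.9 and 47.9, at 17517, 31891 and 41572 bp from the gene, and the strongest had 248 fragments (218 to 281). Wnt3a had 22 summits, all outside the gene, of which 1 was nearest to it. The strongest, with a fold of 60.85, lay 160 bp from Arf1, and all 6 summits near Wnt9a also fell in the Wnt3a window. Wnt8a had 16 summits outside the gene, with a fold of 34.2 at 3858 bp below it that had Wnt8a as its nearest protein-coding gene. Wnt7a had 7 and Wnt8b 10, with 3 and 4 nearest to them and folds of at most 21.4 and 14.7 among those.

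**Figure D4:**
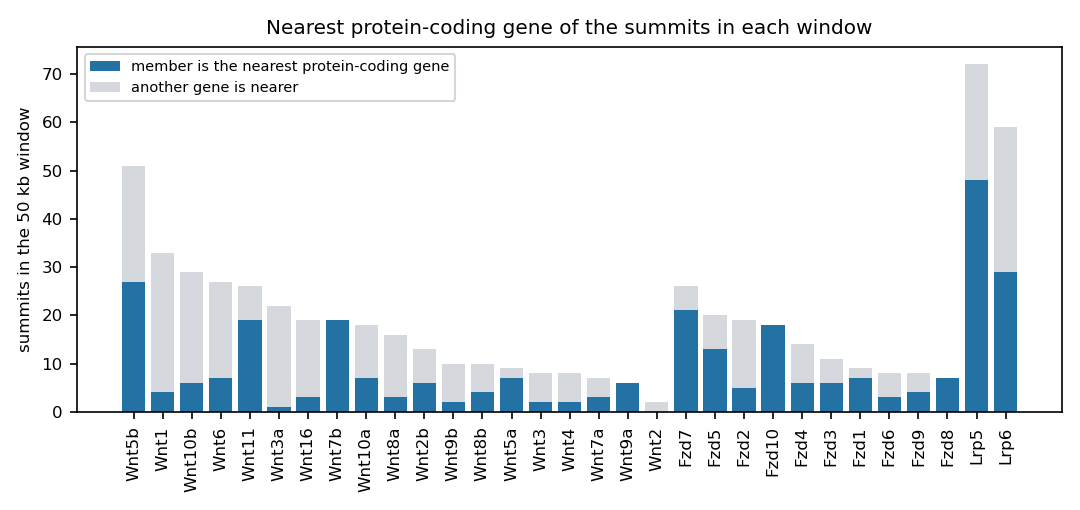
Number of Fos summits in the 50 kb window of each gene, stacked by whether the gene itself is the nearest protein-coding gene (blue) or another gene is nearer (grey). All 19 summits of Wnt7b, all 18 of Fzd10 and all 7 of Fzd8 are nearest to those genes, against 1 of 22 for Wnt3a and none of 2 for Wnt2.

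Many summits in the windows were nearer to another gene than to the ligand or receptor. Of the 549 summits, 295 (53.7%) had 1 of the 31 genes as their nearest protein-coding gene, 46.0% of those near ligands and 64.3% of those near Frizzled genes. The same share was not taken over the windows of all protein-coding genes, so whether these values are high or low is not known. Assignment rests on distance alone, and which gene a summit acts on was not measured. Of the 7 summits with a fold above 100 in these windows, 3 were nearest to a member: those of Fzd10, Fzd5 and Wnt11 described above.

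Lrp5 and Lrp6, single-pass receptors that pair with Frizzled, had stronger summits in their interiors than at their ends. Lrp5, on chromosome 19 from 3584825 to 3686585, had 41 summits inside it, 5 at a boundary and 26 outside. Of those inside, 10 had a fold above 20. The strongest, at 3632255, had a fold of 70.2 and 291 fragments, and those at 3625376 and 3669311 had 58.9 and 47.6. At its boundary the highest fold was 6.49 with 26 fragments (17 to 38). Lrp6, on chromosome 6 from 134446476 to 134566913, had 20 summits inside, led by folds of 46.2 at 134466969 and 31.3 at 134515675, and a boundary fold of 11.55 with 47 fragments (35 to 63) at 127 bp above its upper end. Of the 59 Lrp6 summits 36 lay outside the gene, and 29 had Lrp6 as their nearest protein-coding gene. For Lrp5 these counts were 26 and 48 of 72. Outside Lrp5, a summit 6121 bp above it that was nearest to it had a fold of 56.5. The strongest summits of both windows, with folds of 144.1 and 120.0, lay inside Ppp6r3 and Mansc1. That in Ppp6r3 was 108 bp from an end of this gene and 338 bp from a transfer RNA gene. A summit inside the gene and more than 1 kb from both ends was found in 18 of the 31 genes, beside 54.2% of all genes. Short genes have little or no such interior.

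Genes that act with the ligands and receptors were read from 5 lists by role. Of these 31 genes 20 (64.5%) had a boundary summit, near the 62.0% of all genes, and their median count was 16 summits. Ligand secretion was represented by Wls, the carrier of Wnt proteins, with a boundary fold of 13.95, and by Porcn, the acyltransferase that lipidates them, with 24.3. The other receptors Ror1, Ror2, Ryk and Ptk7 all had a boundary summit, with folds of 2.65 for Ptk7 to 18.3 for Ror1, and 23 to 38 summits each. All 3 Dishevelled genes, which relay the signal inside the cell, had one, led by Dvl2 with 55.6 and 52 summits.

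R-spondins are secreted proteins that keep Frizzled receptors at the cell surface, through Lgr receptors and the ubiquitin ligases Rnf43 and Znrf3. In the R-spondin axis the secreted Rspo1, Rspo2, Rspo3 and Rspo4 had no boundary summit and at most 2 summits each, with none at Rspo2 and Rspo3. The receptors and ubiquitin ligases Lgr4, Lgr5, Lgr6, Rnf43 and Znrf3 all had one, with folds of 82.3 at Lgr4, 71.9 at Znrf3, 37.3 at Rnf43, 8.90 at Lgr5 and 3.37 at Lgr6. Of 13 secreted antagonists and their receptors 6 had one. The receptors Kremen1 and Kremen2 had folds of 88.0 and 83.2, while Dkk1, Dkk2, Dkk3, Sfrp1, Sfrp2, Sfrp4 and Sfrp5 had none. Among the secreted antagonists, Wif1 had 12.3, Notum, a Wnt deacylase with 41 summits in its window, 5.29, Dkk4 5.05 and Frzb 4.81. Kremen1 and Znrf3 are neighbours on chromosome 11, and the Kremen1 boundary summit was also the strongest of the Znrf3 window.

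**Figure D5:**
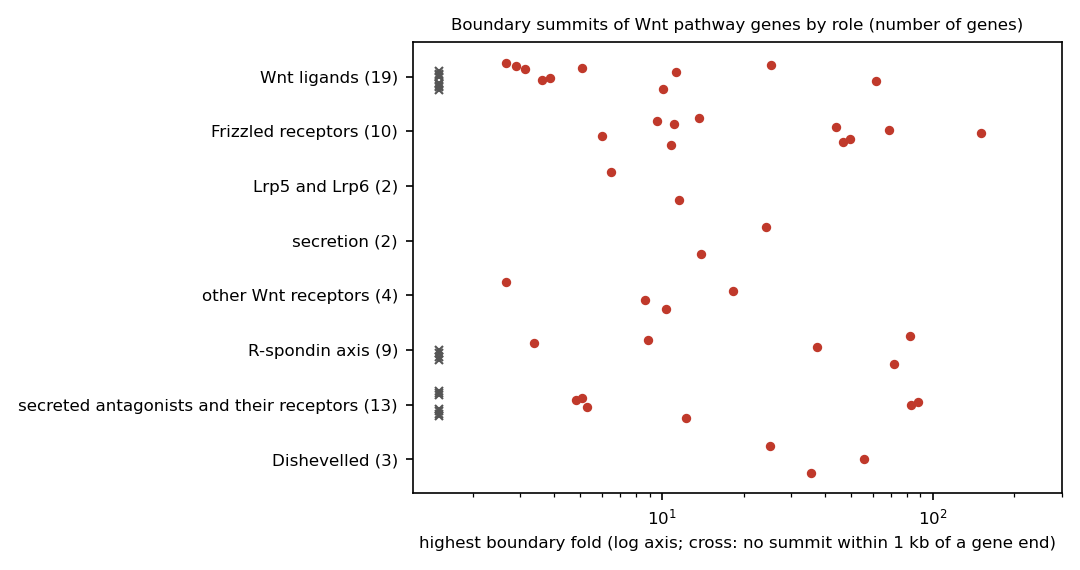
Highest boundary fold (log axis) of each gene by role in the pathway, with crosses for genes without a summit within 1 kb of a gene end. The rows of the Wnt ligands, the R-spondin axis and the secreted antagonists hold crosses, while every gene of the Frizzled, Lrp, secretion, other receptor and Dishevelled rows has a point.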

How the data were processed

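Fos CUT&Tag was done on 4 libraries of mouse colonic epithelium, 2 per group. Per the submitters' processing notes, Bowtie2, MACS2 and mm10 were used, without versions or settings. The authors deposited 1 narrowPeak list, with a DSS label in its name. Which libraries entered it, and how duplicates were treated, is not given in the sources used here. Its fold column, as deposited, is a linear ratio over background. The authors' −log10 q-value is the caller's, at least 1.80, and their score is that value times 10, truncated.

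All folds were whole multiples of 0.2405 within 0.05 steps, which gave a background of 3.16 fragments per base and each pileup. Summits were assigned with Python 3.11.15, pandas 2.3.3 and scipy 1.17.1 to genes of an NCBI RefSeq table of GRCm38.p6, which holds no strand, so a boundary is either gene end. Starts of transcription came from the RefSeq promoter table, in gene orientation: 1668 overlapping entries on opposite strands matched as reverse complements and 0 did not. Positions are 1-based. Pileups turned into folds and back with the same step were recovered at 100% of 20000 summits. That checks the arithmetic only, and neither the background nor the unit of the pileup was tested by it. On simulated summits, window counts were recovered at 100% of 200 genes.

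No test was made, since 1 list without replicates allows none between groups. Poisson intervals cover counting error only. Every member is accounted for, and full values are given for the 3 members per class with the most summits or the highest fold, those without a boundary summit, and Lrp5 and Lrp6. Members and lists were chosen with earlier results of these data known. Alternatives were stricter −log10 q, 1 summit per region, no regions wider than 3000 bp, other boundaries and windows, starts of transcription, and nearest genes.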

Additional observations from a re-analysis of the deposited data

How the results depend on the processing

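No paired analysis was possible because the peak list holds no value per library. Against 10 of 19 ligand genes with a boundary summit, 5 remained with −log10 q of at least 5 (Wnt2b, Wnt6, Wnt9a, Wnt10a and Wnt11) and 4 with at least 10, where Wnt11 was also lost. All 10 Frizzled genes kept theirs at both, and the share of all genes was 59.1 and 55.6%. With 1 summit per region 9 of 10 Frizzled genes and 1 of 2 co-receptors, Lrp6, had one, against 59.4% of all genes. Without regions wider than 3000 bp 8 of 10 Frizzled genes did, against 58.8% of all genes. The boundary summits of Fzd5 and Fzd8 lie in such wide regions, and without these the strongest fold near Fzd10 was 33.0 in place of 246.1. By starts of transcription the counts were 6 of 6 Frizzled and 9 of 15 ligand genes, against 62.2% of all genes. With boundaries of 500 and 2000 bp 7 and 12 of 19 ligand genes had one, against 57.6% and 66.4% of all genes. The boundary fold of Wnt10a was 3.61 with 500 bp, and with 2000 bp those of Wnt1, Wnt5b and Wnt10b were 5.05, 11.55 and 10.8.

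The median of 16 summits per gene became 7 with −log10 q of at least 10, 9 with 1 summit per region, 6 with nearest summits only, and 7 and 34 with windows of 20 and 100 kb. The 549 distinct summits became 333, 337, 295, 322 and 939 in the same order. The median strongest fold, 47.4, became 20.7 with nearest summits only and 30.1 and 80.1 with windows of 20 and 100 kb. Fewer or more summits enter these settings by construction. For single genes, the strongest fold left its counting interval in 53 of 214 values, 39 of them lower, and 114 of 248 summit counts moved by more than 1.5 times, 95 of them lower.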
